A study of Homo sapiens with 6 samples.

Results

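Long noncoding RNAs (lncRNAs) are transcripts of the kind that make messenger RNA, often spliced and polyadenylated, for which no protein is annotated. Most of them are scarce, and a minority reach the level of ordinary messenger RNAs. The abundant lncRNAs of a prostate cancer line were compared here between the parental line and a derivative resistant to enzalutamide, an antiandrogen drug given for prostate cancer. A gene was taken when the deposited table gave it the biotype lncRNA and its mean level over the 6 libraries was at least 10 CPM (the count over the library's total, times 1000000). The prostate cancer lncRNAs PCA3, PCGEM1, PCAT1, SCHLAP1, ARLNC1 and DRAIC and the widely studied NEAT1, MALAT1, MEG3 and H19 were left out by name. This gave 178 members of the 9602 lncRNAs in the table, which holds 35554 genes. A further 4 lncRNAs reached the level and were left out by name (MALAT1, NEAT1, SCHLAP1 and PCAT1).

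RNA was sequenced from 3 flasks of LNCaP, an established line derived from a metastasis of prostate carcinoma, and from 3 flasks of LNCaP-enzaR. According to the study's methods, LNCaP-enzaR was derived from LNCaP by continuous exposure to enzalutamide and then kept on a lower dose, and whether the drug was present at harvest is not given. Each line is a single culture lineage, so a difference between them is a difference between 2 lineages. The triplicates are separate flasks of the same line, and p-values measure the spread between flasks only. The libraries held 77759122 to 98616465 counts. A count of 3, taken as the floor, was worth 0.0302 to 0.0382 CPM. All 8 luminal prostate markers, including KRT8 and KRT18, were above 1 CPM in every library. The basal markers KRT5, KRT15 and TP63 did not exceed 0.0453 CPM in any library, while the basal marker KRT14 was at 0.923 to 1.71 CPM in parental and 0.433 to 0.776 CPM in LNCaP-enzaR libraries, and all 5 immune markers were under 1 CPM in every library. The summed stromal markers, mostly COL1A1 in parental cells, ran from 14.7 to 17.9 CPM in parental and from 8.21 to 8.95 CPM in LNCaP-enzaR libraries, with COL1A2 at 0 throughout. Of the 4 endothelial markers only VWF was above 1 CPM, and their sum ran from 5.58 to 6.10 CPM and from 3.94 to 4.35 CPM. The part of these markers in the results was not tested. In bulk RNA, fewer cells that express a gene and less of its RNA per cell cannot be told apart.

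Abundant lncRNAs come from several kinds of locus. Some are hosts of small nucleolar RNAs (snoRNAs), the guides that direct chemical modification of ribosomal RNA. The snoRNA is cut out of an intron of the host, and the spliced remainder is often degraded by nonsense-mediated decay. Others start from the same promoter region as a protein-coding gene, in the opposite direction (divergent transcripts), or are read from the opposite strand of a coding gene (antisense transcripts). A few, such as NORAD, act in the cytoplasm by binding proteins. The 178 members were grouped by lists of host genes and then by the form of the symbol. This gave 20 snoRNA hosts, 3 microRNA hosts, 52 antisense genes, 18 divergent genes and 24 genes with a LINC symbol. Another symbol was held by 23, including MKLN1-AS, which has no number after AS. The deposited table gives the other 38 under a clone name or other provisional name, and 17 of these have a symbol in GENCODE v44. A microRNA gene lies inside 10 members, so the microRNA hosts listed are not all of them.

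NORAD, the noncoding RNA activated by DNA damage, was the most abundant member by mean CPM, and its sequence carries many copies of the element bound by Pumilio proteins. Its transcript in GENCODE v44 has 5401 bases and holds 15 copies of the letters TGTANATA on the transcript's own strand. It ranked first among the 178 members both in copies and in copies per kilobase (2.78), followed in copies by TMEM161B-AS1 with 6 in 15798 bases. At least 1 copy was present in the longest transcript of 27.0% of members and of 11.5% of the 18824 lncRNA genes of that annotation. Of those genes, 6 held as many copies as NORAD or more, NORAD included. Longer transcripts have more room for a copy, and these shares and counts were not adjusted for length. The match is a description of letters, not of binding. Of the 15 copies, 5 are given here with 6 bases on each side and the element in capitals, and they show how alike the flanks of several copies are:

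NORAD position 1198: ctactgTGTATATAgttgac
NORAD position 3030: ctactgTGTATATAgcggac
NORAD position 3651: ctactgTGTATATAatggaa
NORAD position 1299: acatttTGTAAATAcctttt
NORAD position 2524: acacttTGTAAATAgctttt

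NORAD lies on chromosome 20 (GRCh38, 36045618 to 36051018, minus strand) as a single exon, with no exon of another gene over it. Its level, in CPM scaled by the trimmed mean of M-values (TMM) as are all levels below, was 466, 470 and 466 CPM in the parental libraries and 525, 555 and 534 CPM in the LNCaP-enzaR libraries. The groups did not overlap, and the difference was small, with a log2 fold change (LNCaP-enzaR against parental) of 0.20 ± 0.05 (SE, adjusted p = 0.00223). The messenger RNA of its partner PUM2 was at 139 ± 4.0 and 136 ± 7.99 CPM (SD, n = 3), a log2 fold change of -0.04 (adjusted p = 0.595).

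Taken as a class, the abundant lncRNAs held an almost equal share of the counts in both lines. Parental libraries gave them 0.597% ± 0.00366 of their counts, and LNCaP-enzaR libraries 0.598% ± 0.0104 (SD, n = 3). The mitochondrial genome took 6.87% ± 0.174 of the counts in parental and 15.1% ± 0.416 in LNCaP-enzaR libraries, and its part in the shares was not tested. Of the counts outside the mitochondrial genome, the members held 0.641% ± 0.00341 and 0.704% ± 0.0125. The lowest LNCaP-enzaR library (0.690%) was then above the highest parental library (0.644%). An exact permutation test of 3 against 3 cannot go below p = 0.10, so no test was made of these shares. The snoRNA hosts went from 0.170% ± 0.00133 to 0.138% ± 0.00290 of all counts, and the members with clone names from 0.0706% ± 0.000615 to 0.0850% ± 0.000737.

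All 178 members passed the filter on low counts. A gene was called when its adjusted p in edgeR's quasi-likelihood test was at most 0.05 and its fold change at least 1.5 in either direction. Of the members, 60 were called (33.7%), 40 higher and 20 lower in LNCaP-enzaR. Over all 19711 genes tested, 42.7% were called, 23.3% higher and 19.5% lower, so the share among the members was below the background. Their median log2 fold change was 0.20, beside 0.01 over all genes tested, 0.18 over all 3720 lncRNAs tested and -0.11 over the 9163 protein-coding genes with a mean of at least 10 CPM. Of those coding genes, 36.3% were called, 1378 higher and 1950 lower. With upper-quartile scaling, which raised the median of all genes by 0.10, the members' split was 46 higher and 14 lower. The groups did not overlap for 143 members (80.3%), beside 70.6% of all genes tested and 81.1% of the coding genes with a mean of at least 10 CPM. Of the called members, 27 changed at least 2-fold.

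The rule itself brings in members that differ between the lines, in either direction. A member needs a mean of 10 CPM over both lines, so a lncRNA low in one line is a member only if it is high in the other. In both lines the level was reached by 139 members, of which 30 were called (21.6%), 16 higher and 14 lower. A further 30 members reached it in LNCaP-enzaR cells only, and 24 of them rose, and 9 reached it in parental cells only, and 6 of them fell. Just inside the limit were SNHG7 (10.1 CPM by library totals) and MIR600HG (10.2), and just outside it AC000068.5 (9.995) and RP11-983P16.4 (9.96).

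**Figure D1:**
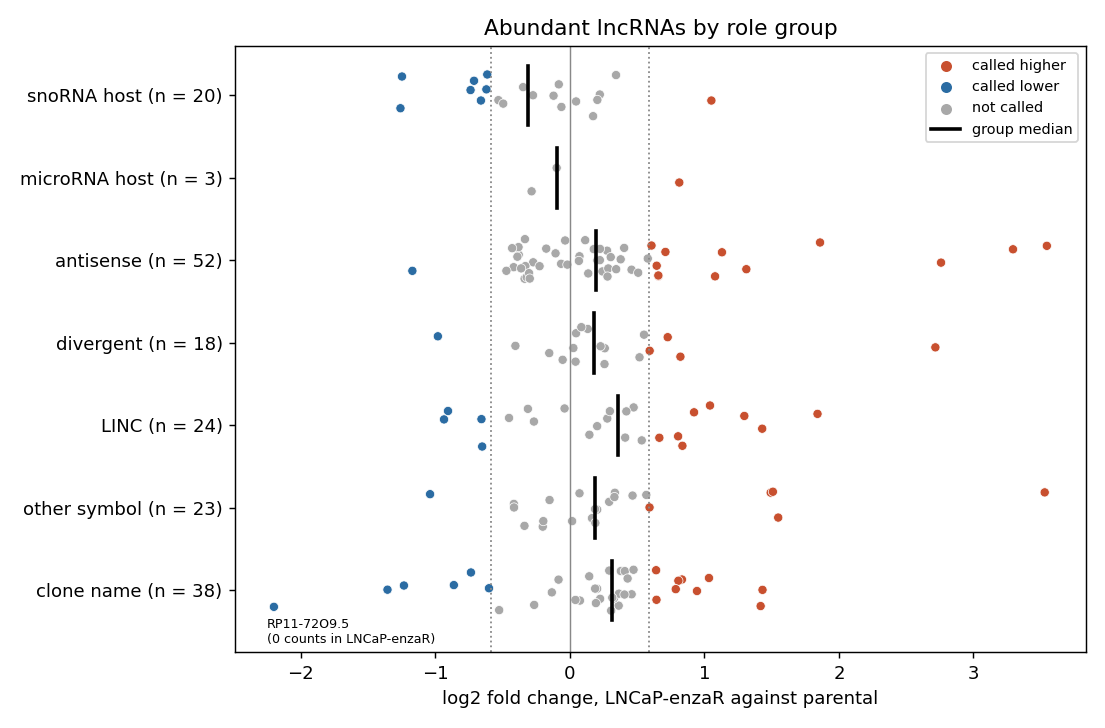
Each point is 1 of the 178 abundant lncRNAs, placed by its log2 fold change (LNCaP-enzaR against parental, 3 libraries each) and its group. Vertical bars are group medians and dotted lines mark a 1.5-fold change. The snoRNA hosts lie mostly to the left (median -0.31) and the LINC genes to the right (median 0.35). RP11-72O9.5, with no count in LNCaP-enzaR, is drawn at the left edge and not to scale.

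In the plot by group, single members lie far from their group's median. Across the 178 members, log2 CPM correlated at 0.711 to 0.745 between libraries of different lines and at 0.984 or more between libraries of the same line. These are correlations across genes, which are not independent replicates. Of the 178, 30 reached 10 CPM in LNCaP-enzaR cells only and 9 in parental cells only, so the rule itself adds members that differ between the lines. Of the 50 highest members of each line, 36 were shared. The median coefficient of variation between flasks was 4.39% in parental and 6.51% in LNCaP-enzaR cells.

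Apart from NORAD, the 10 most abundant members included 4 snoRNA hosts (SNHG29, SNHG14, DANCR and GAS5). SNHG29 had 495 ± 2.25 CPM in parental and 474 ± 3.52 CPM in LNCaP-enzaR cells, with a log2 fold change of -0.06 (adjusted p = 0.264). LINC00665, on chromosome 19, fell from 177 ± 2.35 to 113 ± 1.66 CPM (log2 fold change -0.65 ± 0.05, adjusted p = 4.24e-08), and at -0.55 under upper-quartile scaling it no longer reached 1.5-fold. COLCA1 had 164 ± 8.5 and 143 ± 9.55 CPM. OIP5-AS1 (cyrano), which binds the RNA-binding protein ELAVL1, had 161 ± 8.32 and 124 ± 14 CPM, and FGD5-AS1 had 150 ± 6.52 and 115 ± 10.1 CPM, both under 1.5-fold (log2 fold change -0.38 for each). Per kilobase of annotated exon, the highest mean over both lines belonged to SNHG19 (93.0 CPM per kb in parental and 108 CPM per kb in LNCaP-enzaR), followed by NORAD (86.5 and 99.6 CPM per kb).

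Among the snoRNA hosts, decreases outnumbered increases. Of the 20 hosts, 7 fell, 1 rose and 12 were not called, with a median log2 fold change of -0.31. SNHG1, SNHG4, SNHG3, SNHG14, SNHG10, SNHG30 and SNHG6 were lower in LNCaP-enzaR cells, and SNHG9 was higher. Of all genes tested, 19.5% were called lower and 23.3% higher. Under upper-quartile scaling SNHG10, SNHG30 and SNHG6 no longer reached 1.5-fold, which left 4 lower hosts, and without LNCaP-enzaR replicate 2 SNHG30 and SNHG6 did not, which left 5. GENCODE v44 places 84 snoRNA genes inside SNHG14, 7 inside SNHG1, 3 inside SNHG29 and 2 each inside SNHG3 and SNHG4.

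Many snoRNA hosts belong to the class of transcripts that begin with a C followed by a run of pyrimidines, the 5′ terminal oligopyrimidine (TOP) motif of ribosomal protein messenger RNAs, through which translation is coupled to nutrient signalling. In the RefSeq promoter table (GRCh38.p14), 125 members had an entry, 17 of them snoRNA hosts. A start of C followed by at least 4 bases that are each C or T, read on the transcript's strand, was found in 4 of those 17 hosts, in 6 of the 125 members (4.80%) and in 4.04% of all 27305 promoters in the table. The first 20 bases from the RefSeq start are given with the first 5 in capitals, for the 4 hosts with such a start and for SNHG1 and SNHG3, which lack it at the exact base:

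SNHG4: CCCTTtcccctccggcctct
ZFAS1: CTTTCgcgtctgcggtgccc
SNHG32: CTTTTtgcgaagtgggctcg
SNHG19: CTTTTcggggtcgagtccga
SNHG1: CTCATttttctactgctcgt
SNHG3: GATTCtctaactgcgcatgc

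Of the 4 hosts with this start, SNHG4 fell and the other 3 were not called. ZFAS1 had 22.4 ± 0.644 CPM in parental and 21.1 ± 0.551 CPM in LNCaP-enzaR cells, with a log2 fold change of -0.08 (adjusted p = 0.298). For SNHG32 the levels were 40.3 ± 3.29 and 46.4 ± 3.53 CPM. The RefSeq start lay 1 base from the deposited start for SNHG4, 0 for SNHG19, 68 for SNHG1, 37 for SNHG3, 308 for SNHG32 and 464 for ZFAS1.

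SNHG1, on chromosome 11 (62851984 to 62855953, minus strand), stood at 44.9, 41.1 and 41.3 CPM in parental libraries and at 17.6, 16.4 and 19.2 CPM in LNCaP-enzaR libraries. The highest LNCaP-enzaR library was far below the lowest parental one. The log2 fold change was -1.26 ± 0.08 (SE, adjusted p = 2.29e-09). SLC3A2, the amino acid transporter subunit that starts 51 bases away on the other strand, went from 208 ± 4.12 to 171 ± 13.8 CPM (log2 fold change -0.29, under 1.5-fold). SNHG4, on chromosome 5, was at 54.2, 50.1 and 53.4 CPM against 18.5, 23.8 and 24.1 CPM, a log2 fold change of -1.25 ± 0.09 (adjusted p = 1.95e-08). SIL1, which overlaps SNHG4 on the opposite strand, had a log2 fold change of 0.23 and was not called.

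SNHG14 is the long host on chromosome 15 (24978583 to 25420336) that carries the snoRNA clusters of the Prader-Willi region and runs antisense to UBE3A, the ubiquitin ligase of Angelman syndrome. Its libraries gave 269, 255 and 257 CPM in parental and 145, 164 and 167 CPM in LNCaP-enzaR cells. The groups were well apart, with a log2 fold change of -0.71 ± 0.06 (adjusted p = 1.15e-07). UBE3A was at 181 ± 5.13 and 180 ± 11.9 CPM, a log2 fold change of -0.01 (adjusted p = 0.882).

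SNHG3 fell from 110 ± 1.97 to 66.0 ± 6.24 CPM (log2 fold change -0.74). It starts 37 bases from RCC1 on the same strand, the exchange factor of the small GTPase Ran, and RCC1 fell from 192 ± 1.87 to 74.8 ± 5.64 CPM (log2 fold change -1.36). Reads of such a pair are divided by exon only. SNHG10, SNHG30 and SNHG6 fell by 0.66, 0.62 and 0.61 on the log2 scale. Exons of other genes hold 62.4% of the exonic bases of SNHG6.

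SNHG9, on chromosome 16 beside the ribosomal protein gene RPS2, was the host that rose. Its values were 12.6, 11.6 and 12.1 CPM in parental and 32.0, 21.2 and 22.25 CPM in LNCaP-enzaR libraries, so that 1 of the 3 LNCaP-enzaR libraries lay well above the others. The log2 fold change was 1.05 ± 0.13 (adjusted p = 4.74e-06). The same library was the highest for SNHG19, at 83.3 CPM beside 53.0 and 63.6 CPM, and SNHG19 was not called (log2 fold change 0.22, adjusted p = 0.11). RPS2 went from 5002 ± 164 to 4480 ± 209 CPM.

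GAS5, known as a snoRNA host whose spliced RNA accumulates when translation is blocked, had no snoRNA gene inside it in the annotation used here. It had a higher level in LNCaP-enzaR cells without reaching 1.5-fold. Its libraries were at 108, 114 and 105 CPM in parental and 143, 132 and 140 CPM in LNCaP-enzaR cells, a log2 fold change of 0.34 ± 0.06 (adjusted p = 9.49e-05). DANCR had 208 ± 6.88 and 144 ± 4.22 CPM, a log2 fold change of -0.53 ± 0.05 that also stayed under 1.5-fold. ERVMER34-1, a retroviral envelope gene that lies over DANCR on the opposite strand, had 3.80 ± 0.0756 CPM in parental cells and no count in any LNCaP-enzaR library.

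The exons of 49 members overlap those of another gene by more than 10% of their exonic bases, and whether the counting used strand is not given in the sources used here. Among the hosts, this holds for 15 of 20, with 7 of them called, and of the other 5 only SNHG10 was called, lower (median -0.06). For some hosts, such as SNHG1 and SNHG9, all of that overlap is with nested small RNA genes. Without those genes SNHG4 still overlapped by 16.6% and DANCR by 15.4%. With nested small RNA genes not counted, a rule added after seeing the data, 11 hosts stayed within 10%, and 6 of them were called, 5 lower and 1 higher (median -0.27).

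**Figure D2:**
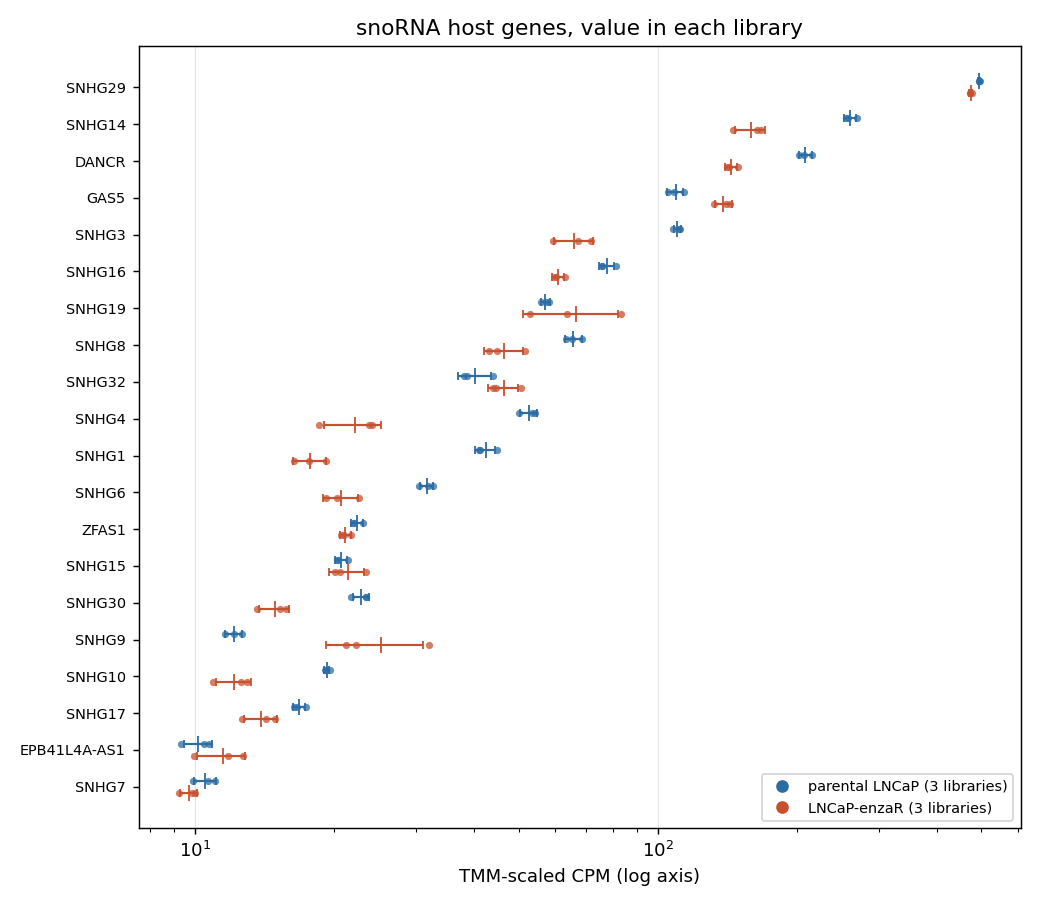
TMM-scaled CPM (log axis) of the 20 snoRNA hosts in each library, with mean and SD (n = 3 per line). The 3 LNCaP-enzaR points of SNHG1 and SNHG4 lie clear of the parental points, to the left, while SNHG9 lies to the right with 1 library at 32.0 CPM.

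As the plot of hosts shows, the parental and LNCaP-enzaR points overlap for 5 of the 20 (SNHG19, SNHG32, SNHG15, EPB41L4A-AS1 and SNHG7).

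The proteins that bind, build and clear these RNAs were described from lists of coding genes. Of all genes tested, 42.7% were called (19.5% lower), and of coding genes with a mean of at least 10 CPM, 36.3%. Of the 8 core proteins of snoRNA-protein particles, 3 fell and 1 rose (median log2 fold change -0.44). NOP58, which binds box C/D snoRNAs, fell from 148 ± 9.29 to 60.8 ± 4.37 CPM (log2 fold change -1.28). DKC1 and GAR1, of the box H/ACA particle, fell by 0.64 and 0.68 on the log2 scale, and under upper-quartile scaling neither reached 1.5-fold. NOP10, another H/ACA protein, rose from 82.6 ± 1.98 to 174 ± 16.6 CPM (log2 fold change 1.08). The box C/D methyltransferase FBL was at 435 ± 19.7 and 318 ± 36.9 CPM and was not called.

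Of the 11 assembly factors of these particles, none was called by edgeR or DESeq2 on all 6 libraries, although 8 had an adjusted p and an unadjusted p under 0.05. Their median was -0.43, with NUFIP1 (log2 fold change -0.55) and RUVBL1 (-0.50) among them, and NUFIP1 was called with library totals (-0.59) and without LNCaP-enzaR replicate 2 or parental replicate 3 (-0.60 each). In nonsense-mediated decay, 4 of 15 genes fell and none rose (26.7% called, median -0.30). These 4 were MAGOH, RNPS1 and EIF4A3, which belong to or act with the exon junction complex, and the UPF3B factor. DESeq2 called 3 of the 15, without EIF4A3 (-0.58), and under upper-quartile scaling MAGOH and UPF3B alone were called, with RNPS1 at -0.52 and EIF4A3 at -0.49. EIF4A3 also missed 1.5-fold without LNCaP-enzaR replicate 2 or 3 or parental replicate 3. MAGOH fell from 54.4 ± 3.09 to 28.0 ± 2.07 CPM. The central helicase UPF1 had a log2 fold change of -0.15 (adjusted p = 0.0461).

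The nuclear RNA exosome and its cofactors, which degrade many lncRNAs, showed 8 of 18 genes lower and none higher (44.4% called, median -0.48). EXOSC8 fell from 56.8 ± 1.25 to 15.3 ± 1.08 CPM (log2 fold change -1.89 ± 0.07, adjusted p = 1.50e-11) and MPHOSPH6 from 53.5 ± 2.08 to 24.4 ± 1.47 CPM (-1.13). DIS3, a catalytic subunit, was at 26.5 ± 1.19 and 25.8 ± 2.11 CPM and was not called. EXOSC10 fell from 78.0 ± 2.31 to 42.7 ± 1.92 CPM (log2 fold change -0.87). Of 11 regulators of TOP messenger RNAs, 3 fell (27.3% called). These were the translation repressor EIF4EBP1 (157 ± 3.22 to 61.1 ± 3.84 CPM, log2 fold change -1.36), TIAL1 and TIA1. LARP1, which binds the TOP motif, had a log2 fold change of -0.19. Of 10 protein partners of well-known lncRNAs, 5 fell (EZH2, HNRNPU, ELAVL1, SPEN and SUZ12), with EZH2, the methyltransferase of Polycomb complex 2, going from 59.3 ± 1.77 to 18.5 ± 0.982 CPM. Under upper-quartile scaling EZH2 and HNRNPU alone were called, and without LNCaP-enzaR replicate 1 ELAVL1 (-0.57) and SUZ12 (-0.54) were not. Coding genes with a mean of at least 10 CPM had themselves more lower than higher calls, as given above.

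A list of 14 members studied by name, which does not hold every studied member (CEROX1, NRAV, GAS5 and DANCR are described elsewhere), stayed within 1.5-fold. By edgeR none was called, and by DESeq2 none, while 12 had an adjusted p and 12 an unadjusted p under 0.05. Their log2 fold changes ran from -0.38 (FGD5-AS1) to 0.41 (LINC00662). PVT1, the neighbour of the MYC oncogene, was at 22.5 ± 1.22 and 28.3 ± 0.562 CPM (log2 fold change 0.33), and MYC was at 267 ± 7.26 and 310 ± 8.59 CPM (0.22). CRNDE had 10.1 ± 0.540 and 11.4 ± 1.08 CPM (0.19, adjusted p = 0.0863) beside IRX5, which rose from 3.39 ± 0.587 to 9.93 ± 0.853 CPM. EBLN3P, GABPB1-AS1, LINC00467 and PAXIP1-DT lay between 0.20 and 0.29, and THAP9-AS1, DLEU1, TP53TG1 and PSMA3-AS1 between -0.34 and -0.11.

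The 5 largest increases were in 3 antisense genes, 1 divergent gene and CEROX1. These 5, like all of the 8 highest, reached 10 CPM in LNCaP-enzaR cells only, so they are members through the line where they are high. Among members at 10 CPM in both lines, the highest log2 fold change was 1.43. Of the 52 antisense genes, 12 rose and 1 fell (median 0.19), and of the 18 divergent genes, 4 rose and 1 fell (median 0.18). The shares called higher, 23.1% and 22.2%, were near the 23.3% of all genes tested. With 10 CPM needed in each line, the antisense median was -0.027, and at a mean of 20 CPM it was -0.11. SLC9A3-AS1, on chromosome 5 (473236 to 480884, plus strand), was at 3.35, 2.47 and 3.16 CPM in parental and 38.1, 32.6 and 34.2 CPM in LNCaP-enzaR libraries. The gap between the groups was many times their spread, with a log2 fold change of 3.55 ± 0.11 (adjusted p = 2.64e-12). SLC9A3, the sodium-hydrogen exchanger on the opposite strand, rose from 0.687 ± 0.162 to 6.25 ± 0.968 CPM (log2 fold change 3.17), and 17.5% of the exonic bases of SLC9A3-AS1 lie in exons of another gene.

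CEROX1 is named for its role as a noncoding regulator of the mitochondrial respiratory chain and starts 174 bases from SOX8, a transcription factor gene. It gave 1.75, 1.87 and 1.68 CPM against 23.1, 19.7 and 18.6 CPM, a log2 fold change of 3.53 ± 0.11 (adjusted p = 2.87e-12). Both groups were tight, and SOX8 rose with it from 9.22 ± 0.956 to 60.9 ± 2.96 CPM (2.72). PSMG3-AS1, on chromosome 7, was at 3.06, 2.11 and 2.56 CPM against 25.83, 25.05 and 25.02 CPM, a log2 fold change of 3.29 ± 0.11 (adjusted p = 6.60e-12). In contrast to SOX8, PSMG3, a proteasome assembly gene whose start lies 932 bases away, was at 39.4 ± 0.772 and 34.3 ± 4.02 CPM (-0.20, adjusted p = 0.0369) and was not called.

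FAM111A-DT, on chromosome 11, rose from 5.42, 6.12 and 4.79 CPM to 34.8, 37.5 and 35.4 CPM (log2 fold change 2.72 ± 0.09, adjusted p = 5.48e-12). FAM111A, a protease that acts at replication forks, rose from 73.3 ± 3.21 to 162 ± 20.6 CPM (1.15). SSTR5-AS1 rose from 4.63 ± 0.271 to 31.3 ± 1.77 CPM (2.76), with 21.6% exon overlap, beside SSTR5, a somatostatin receptor, which rose from 9.79 ± 1.48 to 16.8 ± 1.54 CPM (0.77). ENTPD1-AS1 (1.86, with 26.9% exon overlap), LINC01137 (1.84) and MKLN1-AS (1.55) completed the 8 highest, and the coding neighbour of each (ENTPD1, ZC3H12A and MKLN1) was not called, although ZC3H12A passed under upper-quartile scaling (0.62).

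The members with the largest decreases included several with clone names. Among the 8 lowest, RP11-72O9.5, RP11-158H18.2, RP11-332M2.1 and CENATAC-DT reached 10 CPM in parental cells only and are members through that line. RP11-72O9.5, on chromosome 6 (160369200 to 160386934, minus strand), was at 23.1, 22.5 and 23.8 CPM in parental libraries and had no count in any LNCaP-enzaR library, which makes it at least 665-fold lower against the floor of 3 counts per library. SLC22A3, a transporter of organic cations on the opposite strand at the same locus, fell from 200 ± 10.9 to 0.144 ± 0.0354 CPM. RP11-158H18.2 fell from 16.9 ± 0.546 to 6.61 ± 0.430 CPM (log2 fold change -1.36), and RASEF, which starts 221 bases away on the other strand, fell by 1.07 on the log2 scale.

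DHRS4-AS1 fell from 52.7 ± 1.51 to 23.4 ± 0.706 CPM (-1.17). NRAV, a lncRNA described as a negative regulator of the antiviral response, fell from 29.2 ± 1.95 to 14.2 ± 0.910 CPM (-1.04), and RP11-332M2.1 and CENATAC-DT fell by 1.23 and 0.98 on the log2 scale.

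**Figure D3:**
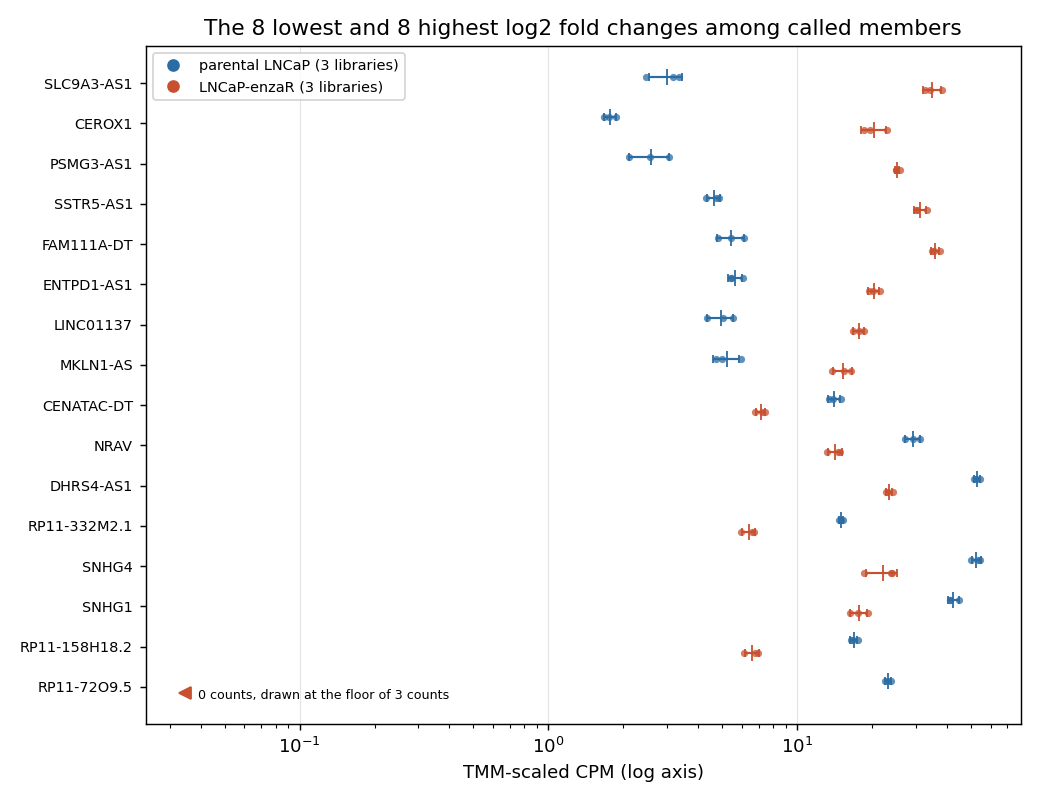
TMM-scaled CPM (log axis) in each library for the 8 lowest and 8 highest log2 fold changes among called members, with mean and SD (n = 3 per line). The lines do not overlap for any of the 16, and the arrow for RP11-72O9.5 marks 0 counts in all 3 LNCaP-enzaR libraries, drawn at the floor of 3 counts.

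Among the remaining groups, 8 of 24 LINC genes rose and 4 fell (median 0.35), 9 of 38 genes with clone names rose and 6 fell (median 0.31), and 5 of 23 genes with another symbol rose and 1 fell (median 0.19). The share of clone-named genes called higher (23.7%) was near the 23.3% of all genes, and that of LINC genes was 33.3%. At a mean of 20 CPM the LINC median was 0.17. RP4-568C11.4, a gene of 1 exonic block on chromosome 20 (24931840 to 24932983) with no overlapping exon, was the most abundant clone-named member. It rose from 37.1, 37.3 and 37.4 CPM to 92.3, 107 and 103 CPM (log2 fold change 1.43 ± 0.06, adjusted p = 1.22e-10), and per kilobase of exon it reached 87.9 CPM in LNCaP-enzaR cells. LINC00963 fell from 55.6 ± 2.90 to 29.7 ± 0.791 CPM (-0.91). Of the 3 microRNA hosts, MIR600HG rose from 7.40 ± 0.732 to 13.01 ± 0.214 CPM (0.81) and MIR99AHG, host of the miR-99a and let-7c cluster, was at 27.4 ± 1.01 and 25.6 ± 2.61 CPM (-0.10, adjusted p = 0.296).

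Many of these loci face a coding gene across a shared start region. For 88 of the 178 members a coding gene starts within 1 kb on the opposite strand, and 20 of them rose (22.7%, near the 23.3% of all genes) and 6 fell. Another 48 overlap a coding gene on the opposite strand, with 9 higher and 7 lower. The 36 with no coding gene over them had 10 higher and 4 lower. Promoter sequences (250 bases before to 50 after the RefSeq start) were rich in G and C, with a median of 66.7% over the 125 members against 58.3% over all promoters in the table. They were searched on both strands for 4 motifs, and matches to different motifs were allowed to overlap. The GC box was read as GGGCGG and the core bound by ETS factors as CCGGAAG. The other motifs were the CCAAT box, with those letters, and the TATA box, read as TATAAA. The GC box was present in 71.2% of member promoters and 44.6% of all, the CCAAT box in 44% and 35.7%, the ETS core in 17.6% and 10.7%, and the TATA box in 6.40% and 12.0%.

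Of the 25 members with an entry that rose, 17 held GGGCGG and 10 CCAAT, and of the 14 that fell, 9 and 6. The promoters of PSMG3-AS1 and SLC9A3-AS1, which rose, and of NRAV, which fell, are shown as examples with motif matches whose RefSeq start is the deposited start. The promoter of SSTR5-AS1, which also rose and whose RefSeq start is the deposited one, held none of the 4 motifs. Capitals mark the letters of any of the 4 motifs on either strand. PSMG3-AS1 is at chr7:1569823-1570122 (plus strand), SLC9A3-AS1 at chr5:472986-473285 (plus strand) and NRAV at chr12:120495897-120496196 (minus strand), all in GRCh38.p14 and 5′ to 3′:

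PSMG3-AS1: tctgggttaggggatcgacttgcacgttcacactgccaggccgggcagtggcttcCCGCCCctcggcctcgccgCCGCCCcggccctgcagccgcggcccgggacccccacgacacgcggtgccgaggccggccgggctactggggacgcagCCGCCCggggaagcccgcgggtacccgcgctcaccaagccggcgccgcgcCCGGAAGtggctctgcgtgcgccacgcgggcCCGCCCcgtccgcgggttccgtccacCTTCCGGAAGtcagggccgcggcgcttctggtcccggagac
SLC9A3-AS1: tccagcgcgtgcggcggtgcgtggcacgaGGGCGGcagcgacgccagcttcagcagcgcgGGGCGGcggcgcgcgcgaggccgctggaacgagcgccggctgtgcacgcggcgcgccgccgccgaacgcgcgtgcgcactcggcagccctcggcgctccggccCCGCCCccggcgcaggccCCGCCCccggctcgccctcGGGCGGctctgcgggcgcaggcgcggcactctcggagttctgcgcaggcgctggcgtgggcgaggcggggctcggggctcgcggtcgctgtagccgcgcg
NRAV: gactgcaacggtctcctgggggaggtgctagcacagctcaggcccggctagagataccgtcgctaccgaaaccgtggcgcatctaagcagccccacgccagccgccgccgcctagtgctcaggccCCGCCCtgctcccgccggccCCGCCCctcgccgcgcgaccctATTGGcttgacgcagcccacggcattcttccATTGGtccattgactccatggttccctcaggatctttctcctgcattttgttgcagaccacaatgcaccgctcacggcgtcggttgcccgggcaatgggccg

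The PSMG3-AS1 promoter held 4 matches to GGGCGG and 3 to CCGGAAG. Of these 3, 2 overlap each other on opposite strands. The SLC9A3-AS1 promoter held 5 matches to GGGCGG, and that of NRAV held 2 to GGGCGG and 2 to CCAAT. A match is a string of letters, not a bound site.

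Whether a lncRNA moved with its coding neighbour was described for the 166 members whose neighbour was also tested. Both were called in 26 pairs, 23 in the same direction and 3 in opposite directions. The lncRNA alone was called in 32 pairs, the neighbour alone in 29 and neither in 79. Among 3264 pairs of the other lncRNAs tested, both were called in 639, and 80.4% of these had the same direction, beside 88.5% of the 26. Leaving out pairs with exon overlap over 10%, 19 of 21 pairs had the same direction. The Pearson correlation of the 166 pairs of log2 fold changes was 0.591, and 0.300 without RP11-72O9.5 and SLC22A3, while Spearman's rho was 0.368 and 0.357. The pairs share libraries, so these values are given as a description.

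Pairs that moved together included CEBPA-DT, which rose from 16.3 ± 1.31 to 28.9 ± 0.676 CPM (log2 fold change 0.82), and CEBPA, a transcription factor gene, which rose from 21.9 ± 1.38 to 89.6 ± 6.02 CPM (2.03). LAMA5-AS1 (1.31) rose with LAMA5, a laminin chain gene (1.25), and RP11-111M22.3 (-0.86) fell with EMSY (-1.02). The 3 opposite pairs were DHRS4-AS1 with CARMIL3, PAXIP1-AS2 with PAXIP1, and RP1-29C18.9 with BRD1, which missed 1.5-fold under upper-quartile scaling (-0.53). CARMIL3 was scarce, at 0.474 ± 0.0980 and 1.54 ± 0.248 CPM, and BRD1 starts 252447 bases from RP1-29C18.9. Exons of another gene hold 17.4% of the exonic bases of PAXIP1-AS2. PAXIP1-AS2 rose by 0.66 while PAXIP1, a gene of the DNA damage response, went from 39.6 ± 1.91 to 16.7 ± 0.756 CPM (-1.25). PAXIP1-DT, on the other side of the same gene, was not called (0.26). CEBPA-DT, LAMA5-AS1, RP11-111M22.3 and EMSY were singled out after their values were seen.

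**Figure D4:**
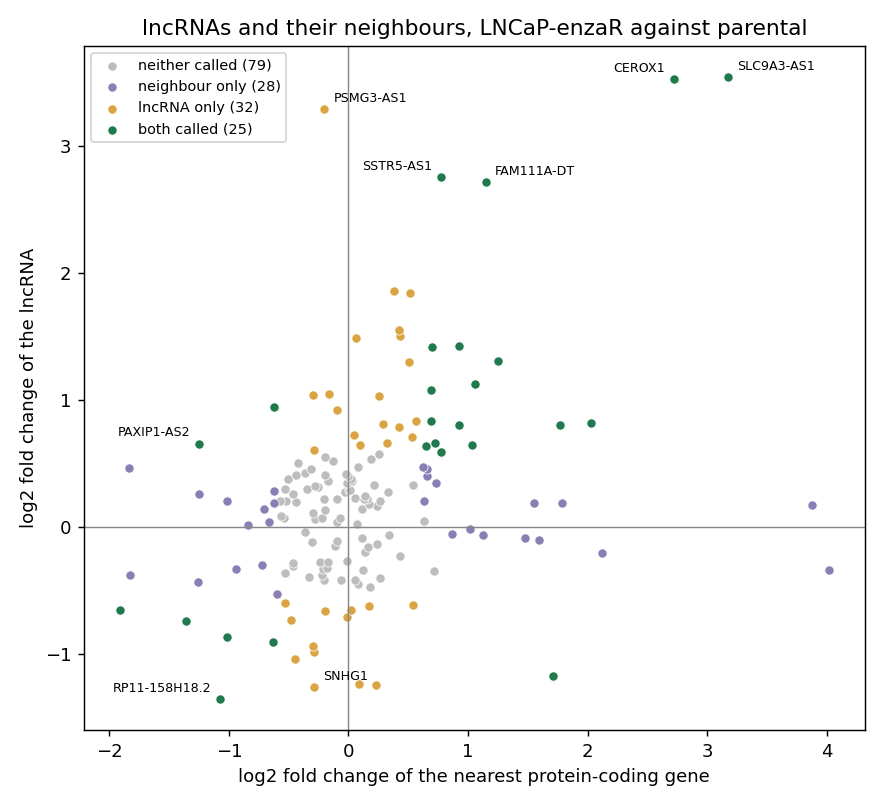
Log2 fold change (LNCaP-enzaR against parental) of each abundant lncRNA (vertical axis) against that of its nearest coding gene (horizontal axis), coloured by which of them was called. Of the 166 pairs, those of RP11-72O9.5 and DANCR, whose neighbours are beyond -10, are not drawn. The pairs with both called lie mostly in the upper right and lower left, and PSMG3-AS1 stands high at a neighbour change of -0.20.

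By chromosome, chosen after the values were seen, the members on chromosome 5 had a median log2 fold change of 0.47 (15 members, 6 higher and 1 lower) beside -0.12 for abundant coding genes there, and those on chromosome 16 had 0.41 (11 members, 5 higher and none lower) beside 0.02. On chromosome 7, 6 of 15 members rose and none fell, with a median of 0.26 beside -0.09. The members that rose include SLC9A3-AS1 on chromosome 5, CEROX1 and SSTR5-AS1 on 16, and PSMG3-AS1 and MKLN1-AS on 7. These reached 10 CPM in LNCaP-enzaR cells only and are members through that line. Over all genes tested, 23.3% were called higher and 19.5% lower. The lowest medians were on chromosome X, at -0.60 over 3 members (2 lower) beside 0.03, and chromosome 3, at -0.30 over 9 members (1 higher and 1 lower) beside -0.11. Chromosome 9 had 3 of 8 members lower and 2 higher (median -0.24, beside -0.03 for coding genes). Chromosome 11 had 3 of 7 lower and 1 higher (median -0.20, beside -0.36). Differences in copy number between the lines were not tested.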

How the data were processed

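Polyadenylated RNA of 3 parental LNCaP and 3 LNCaP-enzaR flasks was sequenced as paired reads. The authors trimmed adapters with Cutadapt, aligned to GRCh38 with STAR using GENCODE annotation, and assigned reads to genes with featureCounts. The deposited values are raw counts with no normalization. Strand setting and treatment of multiply mapped reads are not given in the sources used here, so values of overlapping, antisense and near-identical genes are uncertain. Groups and replicate numbers came from the sample titles.

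Counts were analysed with edgeR 4.0.16 (R 4.3.3): filterByExpr left 19711 genes holding 99.96% of the counts, followed by TMM scaling and the robust quasi-likelihood test with Benjamini-Hochberg adjustment over all genes tested. The limits (adjusted p at most 0.05, 1.5-fold) are those of the study's methods. DESeq2 1.42.0 was an alternative. Scripts were tested on simulated counts. GENCODE v44 gave strand, exon length, overlap and neighbours (nearest start within 1 kb on the opposite strand, else the largest overlap with the opposite strand first, else the nearest start), and RefSeq the promoters. Members were named by rule: the 10 most abundant, the 8 highest and 8 lowest called, the most abundant and most significant of each group, those studied by name, those at the limit, the pair with the smallest p in each partner list, and the neighbours of these members. Further genes were chosen after their values were seen. The members and lists were chosen with earlier results of these data known. A few of the genes named by this rule are not reported here.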

Additional observations from a re-analysis of the deposited data

How the results depend on the processing

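Of 1402 recomputed values of 108 named genes, 1375 kept their side of the limits. None changed direction where the gene was called in the main fit or in the refit. Sign changes of genes called in neither were not counted. The 23 that lost a call and 4 that gained one belong to 14 genes near 1.5-fold. Under upper-quartile scaling, which took the members called lower from 20 to 14, LINC00665 (-0.55), SNHG10 (-0.56), SNHG30 (-0.52), SNHG6 (-0.51), RNPS1 (-0.52), DKC1 (-0.53) and GAR1 (-0.58) were among those lost. DESeq2 called 41 members higher and 20 lower, 60 of them shared with the 60 of edgeR. Leaving out each library in turn gave 57 to 60 called members, with group medians of 0.12 to 0.23 for antisense genes and 0.33 to 0.41 for LINC genes. Upper-quartile scaling moved the median log2 fold change to 0.29 for antisense genes, 0.46 for LINC genes, 0.41 for clone names, -0.34 for snoRNA particle proteins, -0.094 for TOP regulators and -0.38 for protein partners, and library totals gave 0.28 for clone names. The choice of members mattered more. At a mean of 5 CPM, 140 members were called (94 higher, 46 lower), with medians of 0.30 for LINC genes and 0.18 for clone names. At 20 CPM, 25 were called (13 higher, 12 lower), with medians of -0.11 for antisense, 0.53 for divergent, 0.17 for LINC and 0.345 for clone-named genes. With 10 CPM needed in each line, 30 were called (16 higher), with medians of -0.027 for antisense and 0.24 for LINC genes. With exon overlap of at most 10%, medians were -0.063 for snoRNA hosts and 0.41 for LINC genes, and the latter was also 0.41 with nested small RNA genes not counted, a setting chosen after seeing the data. With no minimum fold 138 members were called (88 higher, 50 lower), and at 2-fold 27 (20 higher, 7 lower). The share of counts differed by 0.0637 percentage points outside the mitochondrial genome and by 0.0016 over all counts. The cause of these shifts was not tested beyond the construction of each setting. Same-numbered flasks did not deviate together (correlations -0.211, 0.0085 and -0.116), so the numbers were not taken as pairs. A fit with the replicate number as a block called 40 members higher and 20 lower, all 60 shared. Depth limited RP11-72O9.5 to a lower bound.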
